A study of Mus musculus with 96 samples.

Results

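The striatum of mice that carry a Q140 huntingtin allele and are null for Pms1 (Q140 Pms1-/-) was compared with the striatum of mice that carry the Q140 allele on an intact Pms1 background (Q140). The members are the 16 striatal libraries that the labels put in these groups, 8 of each genotype with 4 females and 4 males apiece, out of 96 libraries of striatum and cerebral cortex from 48 mice of 6 genotypes. All mice were on a C57BL/6 background and 6 months old, and both groups are heterozygous for Q140, a knock-in of an expanded CAG repeat into the mouse Htt gene. How the Pms1 allele was made is not described in the labels. Further groups of 8 serve as context: Q140 with 1 Pms1 copy (Q140 Pms1+/-), Pms1-/- without the knock-in, and wild type. Values come from bulk tissue, in which fewer cells of a type and less RNA per cell cannot be told apart.

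The product of Pms1 belongs to the MutL proteins, which act in DNA mismatch repair downstream of mismatch recognition. This repair is the pathway through which long CAG repeats lengthen in somatic cells, and the medium spiny neurons of the striatum are known for long somatic expansions and for losing the expression of their identity genes in Huntington's disease models. Medium spiny neurons are inhibitory projection neurons: those of the direct pathway carry the dopamine D1 receptor and those of the indirect pathway the dopamine D2 receptor, and both signal largely through cyclic AMP. The comparison asks how the striatal transcriptome of a Q140 mouse differs when Pms1 is lost. Repeat lengths were not analysed here.

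Libraries held 29352852 to 47621589 gene counts in Q140 Pms1-/- striatum, against 35798997 to 55237836 in Q140 striatum. Levels are CPM, the counts relative to library size after scaling with TMM factors; 3 levels given together are the lowest, the median and the highest of 8 animals. A change or list median given without a unit is a log2 fold change, Q140 Pms1-/- over Q140 unless other groups are named. The dissection was checked against the cortex of the same 16 animals: all 8 striatal markers and all 5 cortical markers examined lay apart between the tissues, with a median for Drd2 of 170.0 CPM in striatum and 0.444 CPM in cortex and for Slc17a7, a transporter of cortical glutamate neurons, of 3.68 CPM in striatum and 1269 CPM in cortex. One feature of the animals moves with genotype. Each animal has a 2-part code, and the first number is 16 or more (a late code) in all 8 Q140 Pms1-/- mice, against 3 Q140 mice, all of them male; the sources used here do not say what the number stands for. Among females, code and genotype therefore cannot be told apart, and results are given below with and without the early-coded animals where that matters.

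Pms1 RNA was lower, but far from absent, in Q140 Pms1-/- striatum. Pms1 (ENSMUSG00000026098, chromosome 1, 53189187 to 53297018, GRCm38) had 3.59, 4.21 and 4.64 CPM in Q140 Pms1-/-, against 4.38, 5.39 and 6.28 CPM in Q140 (log2 fold change -0.33, SE 0.08, adjusted p = 0.0045). The groups overlapped, with 5 of 8 Q140 Pms1-/- striata below the lowest Q140 striatum. Reads were counted over the whole gene and no exon values were used, so this level says little about the genotype. Htt RNA was higher in Q140 Pms1-/- by 0.09 on the log2 scale (SE 0.02, adjusted p = 0.00774), at 209, 216 and 225 CPM in Q140 Pms1-/- and 196, 204 and 211 CPM in Q140; this call was lost when libraries were scaled by their totals and by limma on FPKM.

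Across the striatal transcriptome the response was broad and shallow, and the genes called higher were mostly abundant ones. Of 18890 genes tested with edgeR's quasi-likelihood test, 1342 (7.1%) were called (adjusted p below 0.05), that is 958 higher (5.07%) and 384 lower (2.03%) in Q140 Pms1-/- than in Q140. The median size of a called change was 0.17 on the log2 scale, 90% of them were smaller than 0.41, and 67 exceeded 1.5-fold. In 165 genes (0.873%) the CPM ranges of Q140 Pms1-/- and Q140 did not overlap. Genes called higher had a median level of 91.0 CPM and those called lower 27.2 CPM, against 13.0 CPM over all genes tested. Small changes pass more readily in abundant genes, and the part of this in these levels was not tested. The direction of the balance depended on scaling: with library totals in place of TMM factors, 622 were called higher and 1526 lower, and with limma on the authors' FPKM values 614 were higher and 1550 lower. Those scalings move the median of all genes to -0.04. With late code as a covariate 951 genes were called, in the 11 late-coded animals 154, and in the 7 late-coded males 0, where 2052 genes had an unadjusted p below 0.05.

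**Figure D1:**
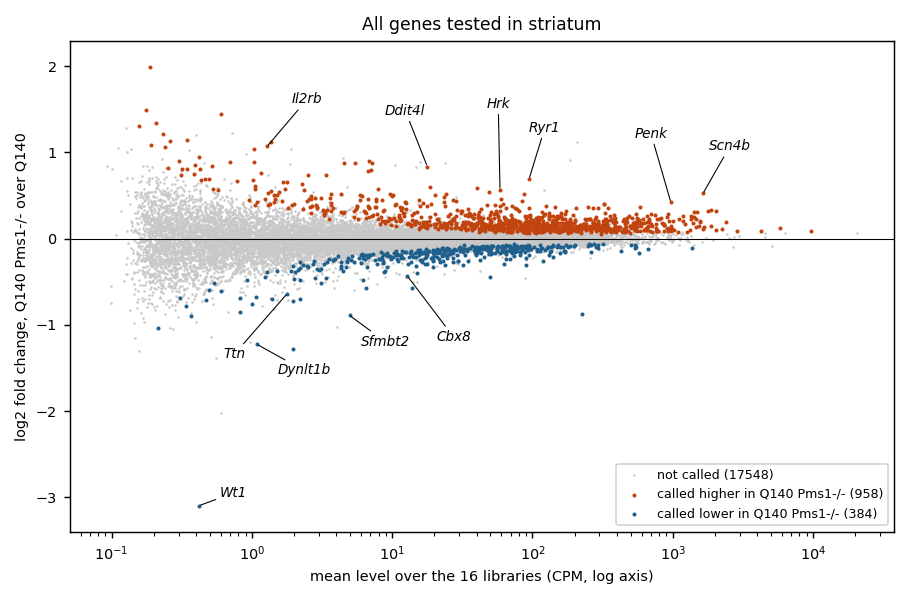
Each point is 1 of the 18890 genes tested in striatum, placed by its mean level over the 16 libraries (CPM, log axis) and its log2 fold change, Q140 Pms1-/- over Q140. The 958 genes called higher sit mostly at high levels and small changes; the largest fitted change, that of Wt1, belongs to a gene near the lower end of detection.

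Genes listed here for medium spiny neurons were higher in Q140 Pms1-/- striatum almost as a body. Of 30 such genes, 26 rose, none fell and all 30 fitted changes were positive. Their median log2 fold change was 0.26 against -0.00459 over all genes tested. Over all genes tested, 5.07% were called higher and 2.03% lower, shares that also apply to the lists below. The list was chosen with earlier results of these data known, and 28 of the 30 were called lower in Q140 than in wild type. The choice fixes the count of 26 in part. Scn4b, the beta-4 subunit of voltage-gated sodium channels (ENSMUSG00000046480, chromosome 9, 45138395 to 45154152), had 1592, 1953 and 2175 CPM in Q140 Pms1-/-, against 1201, 1380.2 and 1480.3 CPM in Q140 (log2 fold change 0.52, SE 0.06, adjusted p = 3.87e-08). Every Q140 Pms1-/- striatum lay above every Q140 striatum, and all of them stayed below the wild-type median of 2733 CPM. Ppp1r1b, which encodes the dopamine-regulated phosphatase inhibitor DARPP-32, had 1923, 2263 and 2445 CPM in Q140 Pms1-/-, against 1702, 1786 and 2013 CPM in Q140 (log2 fold change 0.32, SE 0.04, adjusted p = 1.60e-06). Here 7 of 8 Q140 Pms1-/- striata exceeded the highest Q140 striatum. Cnr1, the cannabinoid CB1 receptor, rose by 0.41 and Arpp21, a cyclic AMP-regulated phosphoprotein, by 0.31. The 4 members that did not pass were Tmem158 at 0.25, Spata2l at 0.15, Sh3rf2 at 0.08 and Slc35d3 at 0.07.

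Summed over the 31 table rows with names on this list, medium spiny neuron genes came to 19981, 22632 and 23186 CPM in Q140 Pms1-/-, against 17201, 18483 and 19556 CPM in Q140, with no overlap between the groups. The sums in animals without the knock-in were 23877, 26222 and 28134 CPM in Pms1-/- and 24843, 26755 and 27826 CPM in wild type, so every Q140 Pms1-/- sum lay below every wild-type one. The separation was also present inside the late-coded males, at 19981, 21456, 22600.3 and 22739 CPM in Q140 Pms1-/- and 17201, 18471 and 19556 CPM in Q140. Calls over the list numbered 25 with late code as a covariate and 7 in late-coded animals, and none was made in the 7 late-coded males, where the median of the list was 0.22. Leaving out any 1 of the 16 animals left between 24 and 27 members called higher.

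**Figure D2:**
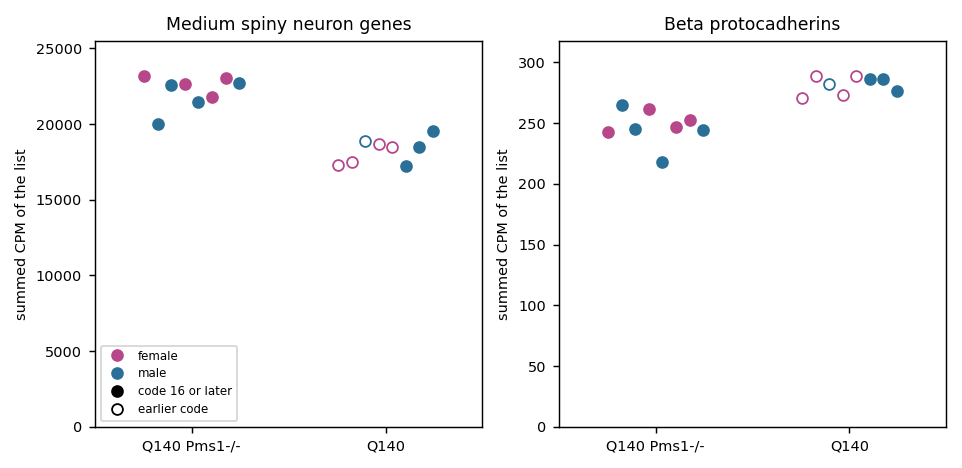
Summed CPM of the medium spiny neuron genes (left panel) and of the beta protocadherins (right panel) in each Q140 Pms1-/- and Q140 striatum, coloured by sex, with filled points for late codes and open points for earlier ones. Neither list's groups overlap, in the whole set or among the filled points: the first is higher and the second lower in Q140 Pms1-/-.

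Markers of both output pathways included genes that rose. Of 7 measured markers of D2 receptor neurons (8 listed), 5 rose and none fell (median 0.25). Penk, the precursor of enkephalin (ENSMUSG00000045573, chromosome 4, 4133531 to 4138819), had 922, 1139 and 1258 CPM in Q140 Pms1-/-, against 770.0, 822 and 908 CPM in Q140 (log2 fold change 0.42, SE 0.05, adjusted p = 7.67e-07). No Q140 Pms1-/- striatum reached down into the Q140 range. Adora2a, an adenosine receptor, had 318, 375 and 412 CPM in Q140 Pms1-/-, against 244, 284 and 307 CPM in Q140 (log2 fold change 0.40, SE 0.06, adjusted p = 3.60e-06), and Drd2 rose by 0.32 (SE 0.04, adjusted p = 2.00e-06); both were higher in all 8 Q140 Pms1-/- striata than in any Q140 striatum. Among 8 markers of D1 receptor neurons 2 rose and 1 fell (median 0.09). Chrm4, the muscarinic M4 receptor, rose by 0.27 and Drd1 by 0.19 (SE 0.04 and adjusted p = 0.000473), while the transcription factor Isl1 fell by 0.16 on the log2 scale (SE 0.04, adjusted p = 0.0126), a call lost with late code as a covariate. In late-coded animals and in males only no member of the direct pathway list was called, and Drd1 stood at 0.12 in late-coded animals (adjusted p = 0.262) and at 0.09 in males only (adjusted p = 0.507), against 0.28 in females only (adjusted p = 6.25e-05). The neuropeptide precursors Tac1 and Pdyn stood at -0.06 and 0.16 and did not pass (adjusted p = 0.475 and 0.301). The difference between the pathways was not tested.

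Genes at the producing and at the degrading end of cyclic AMP signalling rose. Of 25 adenylyl cyclases, phosphodiesterases and regulators, 7 rose and none fell, against 5.07% higher and 2.03% lower over all genes tested. Under library totals and FPKM the count was 5 higher and 4 lower. Adcy5, Pde10a, Pde1b and Pde2a are also on the medium spiny neuron list. Adcy5, the main adenylyl cyclase of the striatum, had 1509, 1663 and 1747 CPM in Q140 Pms1-/-, against 1258, 1351 and 1427 CPM in Q140 (log2 fold change 0.31, SE 0.03, adjusted p = 2.52e-08). Pde10a, the phosphodiesterase enriched in medium spiny neurons, had 1795, 1959 and 2233 CPM in Q140 Pms1-/-, against 1495, 1599.8 and 1717 CPM in Q140 (log2 fold change 0.32, SE 0.04, adjusted p = 1.36e-06). In both genes the groups stood apart. Pde1b, a calmodulin-dependent phosphodiesterase, rose by 0.25, Pde7b by 0.16 and Pde2a by 0.13, a call lost under library totals and FPKM (0.09 under both). Besides DARPP-32, this pathway controls inhibitor-1 of protein phosphatase 1, encoded by Ppp1r1a. Ppp1r1a had the smallest p of all genes tested: 62.1, 74.8 and 76.6 CPM in Q140 Pms1-/-, against 53.4, 57.4 and 61.5 CPM in Q140 (log2 fold change 0.35, SE 0.03, adjusted p = 5.77e-10). Its groups were separate, although 1 Q140 Pms1-/- striatum, at 62.1 CPM, stood below the rest of its group and close to the highest Q140 striatum.

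Many listed genes that act next to the receptors were higher as well, in part the same genes as above. Among 20 G-protein subunits and regulators of G-protein signalling 10 rose and none fell (8 higher and 2 lower under library totals and FPKM). Over all genes tested 5.07% were called higher and 2.03% lower. Rgs14, Rasgrp2, Rasd2, Rgs9 and Gnal are also on the medium spiny neuron list. Rgs4, which speeds the switching-off of Gi and Gq alpha subunits, had 591, 656 and 733 CPM in Q140 Pms1-/-, against 431, 498 and 578 CPM in Q140 (log2 fold change 0.37, SE 0.06, adjusted p = 2.46e-05). The groups did not overlap. Rgs14 rose by 0.38, Rasgrp2, a calcium-regulated activator of Rap proteins, by 0.30, Rasd2, the striatal GTPase Rhes, by 0.28, Rgs9 by 0.28, and Gnal, which encodes the olfactory-type G-protein subunit that couples dopamine and adenosine receptors to Adcy5, by 0.11.

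Some channel subunits and genes of calcium handling were also higher, where 5.07% of all genes tested were called higher and 2.03% lower. Of the genes named here, Kcnab1 and Ryr1 are also on the medium spiny neuron list. Of 20 potassium channel genes 9 rose and none fell (median 0.13), from Kcnh4 at 0.41 to Kcnd2 at 0.14, with Kcnip2 and Kcnab1, accessory subunits of voltage-gated potassium channels, at 0.24 and 0.24. Of 21 measured sodium and calcium channel genes 7 rose and none fell, or 5 rose and 3 fell under library totals and FPKM; Cacna2d3, an alpha-2-delta subunit, rose by 0.18. Among genes of calcium release, calcium pumping and calcium-dependent kinases 15 of 25 rose and none fell (median 0.16). Ryr1, a ryanodine receptor that releases calcium from internal stores, had 80.8, 114 and 153 CPM in Q140 Pms1-/-, against 58.7, 73.8 and 88.4 CPM in Q140 (log2 fold change 0.69, SE 0.09, adjusted p = 5.44e-07). It was above the Q140 range in 7 of 8 striata. Itpr1, the inositol trisphosphate receptor, rose by 0.23 (SE 0.03), Hpca, the calcium sensor hippocalcin, by 0.27 (SE 0.05) and Ppp3ca, a catalytic subunit of calcineurin and one of the most abundant genes called, by 0.20 (SE 0.03). The groups stood apart in all 3 of these genes. Camk2a, Camk2b and Camk4, the calmodulin-dependent kinases, rose by 0.14, 0.20 and 0.22.

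Of 23 glutamate and GABA receptor genes 6 rose and none fell (1 fell under library totals and FPKM), among them Gabrd, the delta subunit of extrasynaptic GABA-A receptors, at 0.28, and Grik2, a kainate receptor subunit, at 0.21. Among 18 peptides and peptide receptors 2 rose, Penk and Oprk1, the kappa opioid receptor. Oprk1 had 47.9, 62.0 and 75.5 CPM in Q140 Pms1-/-, against 40.8, 49.7 and 56.4 CPM in Q140 (log2 fold change 0.33, SE 0.08, adjusted p = 0.00428), with overlapping groups. Its call was lost in the 16 libraries alone (0.32, adjusted p = 0.054), in each sex alone and in late-coded animals. Of 18 striatal transcription factors 5 rose and 1, Isl1, fell; under library totals 2 rose and 4 fell. Bcl11b and Meis2, which mark striatal projection neurons, each rose by 0.12, Sp9, a factor of D2 neurons, by 0.16 and Dlx6 by 0.13. The calls for Bcl11b, Sp9 and Dlx6 were lost under library totals and FPKM (0.08 for Bcl11b under both), for Bcl11b also with the first code number as a replicate block (0.11, adjusted p = 0.0507), for Sp9 also without any 1 of 12 animals (0.14 to 0.16) and for Dlx6 without any 1 of 4 (0.12).

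**Figure D3:**
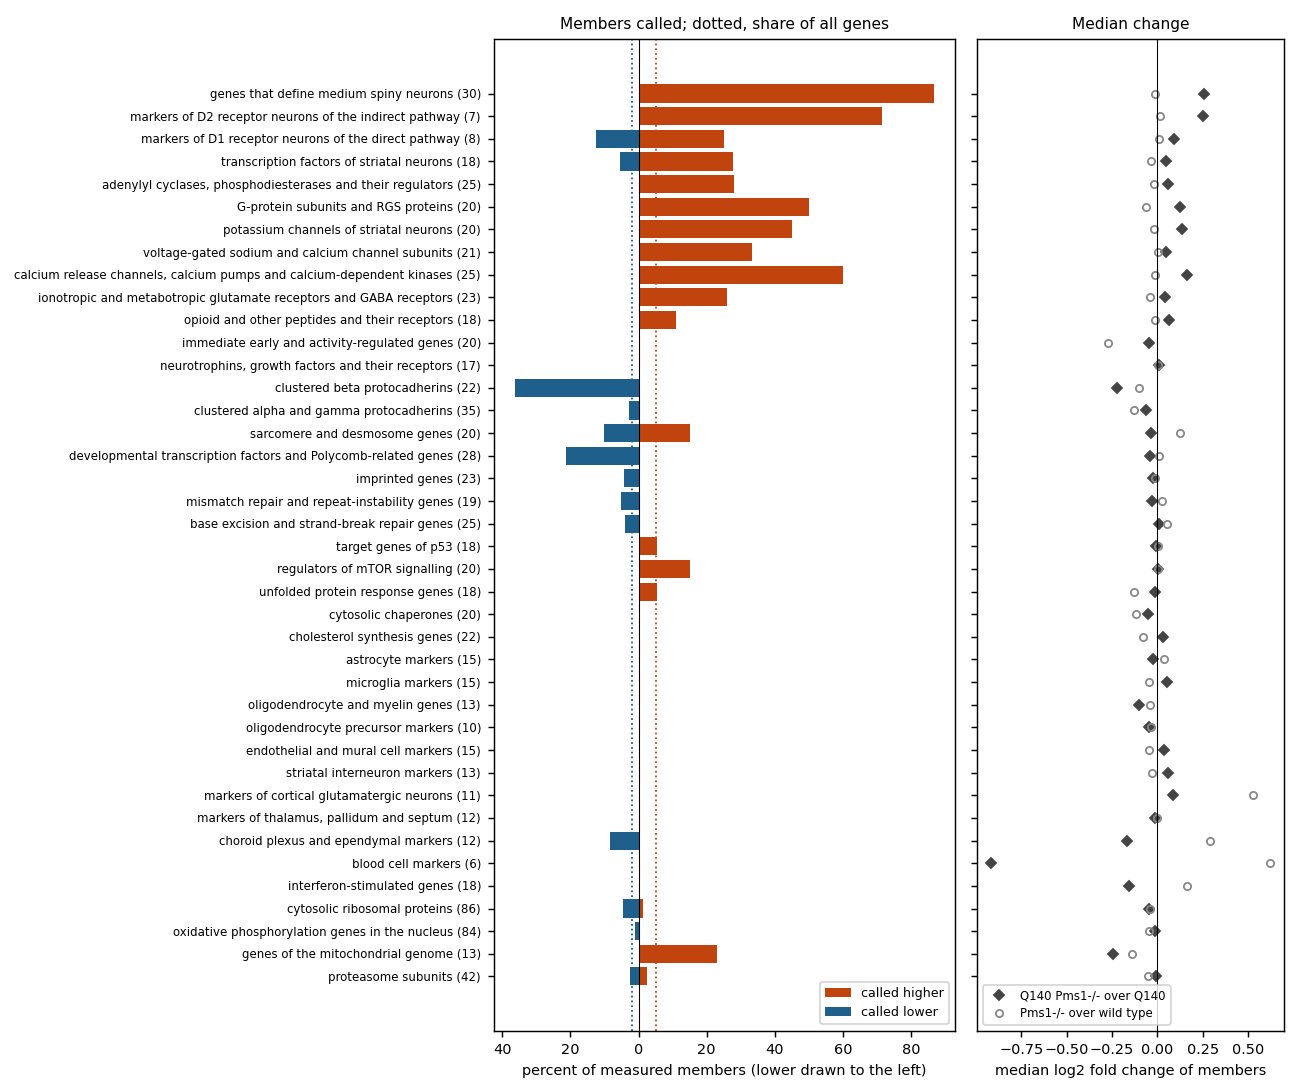
Left, the percent of measured members of each of the 40 gene lists that were called higher (to the right) or lower (to the left) in Q140 Pms1-/- than in Q140, with the share of all genes tested as dotted lines (5.07% higher, 2.03% lower) and the number of measured members in brackets. Right, the median log2 fold change of each list for Q140 Pms1-/- over Q140 (diamonds) and for Pms1-/- over wild type (circles): the medium spiny neuron list has its diamond at 0.26 and its circle at -0.02.

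Several single genes changed by more than the medians of these lists. Ddit4l and Rasd2, named below, are also on the medium spiny neuron list. Ddit4l, an inhibitor of mTOR signalling (ENSMUSG00000046818, chromosome 3, 137621612 to 137628333), had 16.8, 22.9 and 29.5 CPM in Q140 Pms1-/-, against 10.0, 12.8 and 14.5 CPM in Q140 (log2 fold change 0.84, SE 0.09, adjusted p = 1.91e-08). Its groups were separate, and the wild-type median of 39.6 CPM was above the highest Q140 Pms1-/- value. Of 20 measured regulators of mTOR 3 rose, the others being Rasd2 and Deptor, an mTOR-binding inhibitor, at 0.28 (SE 0.07, adjusted p = 0.00908); under library totals 3 more were called lower. Hrk, a BH3-only protein that promotes apoptosis (ENSMUSG00000046607, chromosome 5, 118164648 to 118189478), had 57.2, 69.6 and 80.8 CPM in Q140 Pms1-/-, against 43.2, 47.1 and 53.1 CPM in Q140 (log2 fold change 0.57, SE 0.06, adjusted p = 4.05e-09). All 8 Q140 Pms1-/- values were above the Q140 range. Cap1, a regulator of actin and cyclase-associated protein, rose by 0.26, Ctxn1, a small neuronal membrane protein, by 0.26, Ppp4r4, a regulatory subunit of protein phosphatase 4, by 0.33 and Sec14l1 by 0.27, all with SE 0.03 or 0.04. Ndrg4 was the most abundant gene called outside the mitochondrial genome, with a change of 0.09 (SE 0.02) that was not called under library totals, by limma on FPKM or with late code as a covariate.

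Among the 15 largest increases most genes were expressed at a few CPM. Il2rb, the interleukin-2 receptor beta chain, had 1.09, 1.84 and 2.34 CPM in Q140 Pms1-/-, against 0.473, 0.848 and 1.04 CPM in Q140 (log2 fold change 1.07, SE 0.16, adjusted p = 6.28e-06), with separate groups. Mafa, a bZIP transcription factor known from pancreatic beta cells, had 0.940, 1.33 and 1.84 CPM in Q140 Pms1-/-, against 0.499, 0.660 and 0.959 CPM in Q140 (log2 fold change 1.04, SE 0.18, adjusted p = 4.50e-05), and its wild-type median was 3.28 CPM. Cpne9, a copine, had 6.38, 8.96 and 12.0 CPM in Q140 Pms1-/-, against 3.16, 4.82 and 5.86 CPM in Q140 (log2 fold change 0.89, SE 0.12, adjusted p = 8.44e-07), again with no overlap. These 3 genes share low levels and changes near or above 0.9 on the log2 scale. Sec14l3 rose by 0.88, Gpx6, a glutathione peroxidase, by 0.87, Slc4a11, a membrane transporter, by 0.78 and Mas1, the receptor for angiotensin-(1-7), by 0.74. Wnt8b, a Wnt ligand, had the largest increase among called genes of at least 1 CPM chosen by the naming rule, 1.12 (SE 0.32, adjusted p = 0.0234), but only 3 of 8 Q140 Pms1-/- striata lay above the Q140 range and the call was lost with late code as a covariate, with the first code number as a replicate block and without any 1 of 5 animals, 2 of them Q140 Pms1-/- (0.91 to 1.05).

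**Figure D4:**
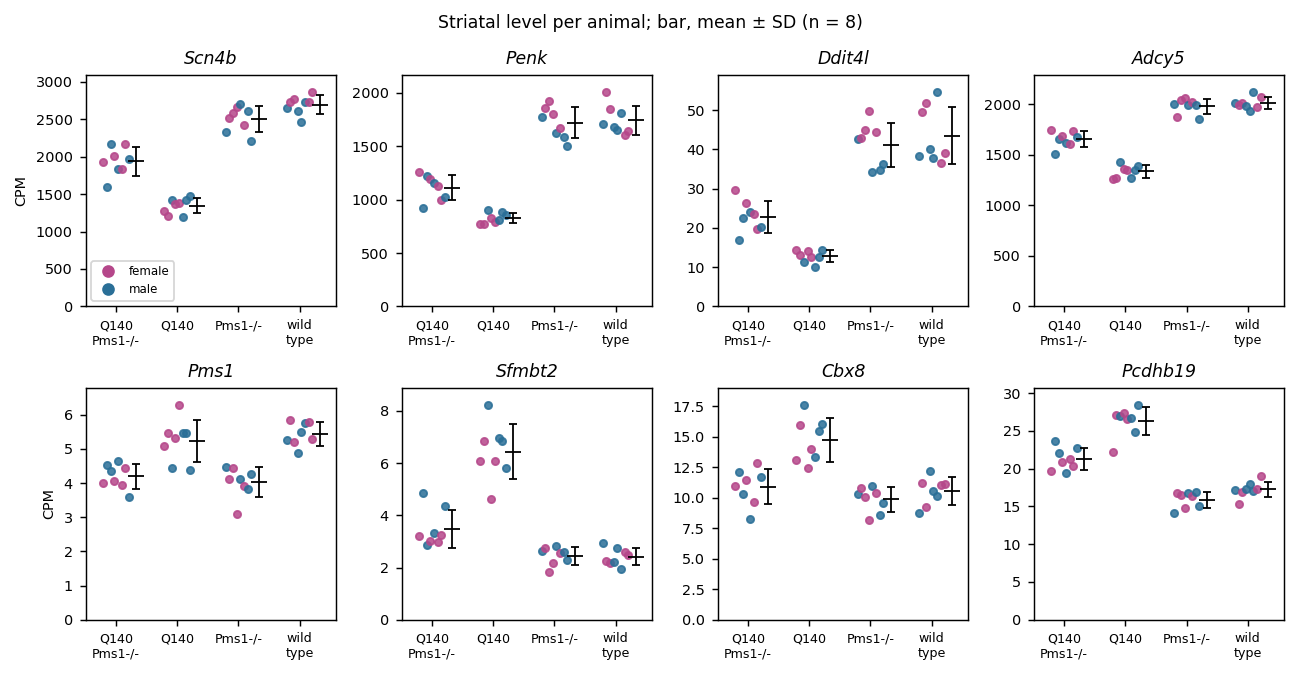
Striatal level (CPM, axes from 0) of 8 genes in every animal of Q140 Pms1-/-, Q140, Pms1-/- and wild type, coloured by sex, with mean and SD (n = 8) as bars. Scn4b, Penk, Ddit4l and Adcy5 are higher in Q140 Pms1-/- than in Q140, Pms1, Sfmbt2, Cbx8 and Pcdhb19 lower.

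The genes that fell included developmental regulators and members of Polycomb repressor complexes, which hold such regulators silent. Of 28 measured genes of this kind (40 listed) 6 fell and none rose (5 fell with RLE size factors, 4 with late code as a covariate), with a median of -0.04. Sfmbt2, an MBT-domain Polycomb protein (ENSMUSG00000061186, chromosome 2, 10370510 to 10595253), had 2.87, 3.23 and 4.85 CPM in Q140 Pms1-/-, against 4.64, 6.47 and 8.23 CPM in Q140 (log2 fold change -0.89, SE 0.10, adjusted p = 8.68e-09). In 7 of 8 Q140 Pms1-/- striata it was below the Q140 range, and the wild-type median was 2.36 CPM. Cbx8, a chromobox subunit of Polycomb repressive complex 1 (ENSMUSG00000025578, chromosome 11, 119036305 to 119040969), had 8.24, 11.2 and 12.8 CPM in Q140 Pms1-/-, against 12.5, 14.7 and 17.6 CPM in Q140 (log2 fold change -0.43, SE 0.08, adjusted p = 7.17e-05), and 7 of 8 values lay below the Q140 range. L3mbtl3 fell by 0.21 on the log2 scale and Suz12, a core subunit of Polycomb repressive complex 2, by 0.09. Both calls were lost with late code as a covariate, and that for Suz12 also with RLE size factors. In the late-coded males alone the fitted change was -0.78 for Sfmbt2 and -0.50 for Cbx8, neither of which passed there.

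Wt1, a zinc-finger transcription factor of kidney and gonad development (ENSMUSG00000016458, chromosome 2, 105126529 to 105173616), was close to undetected in 1 group. It had 0 to 10 reads a library in Q140 Pms1-/-, against 16 to 69 reads in Q140, or 0, 0.0470 and 0.340 CPM in Q140 Pms1-/- and 0.284, 0.721 and 1.31 CPM in Q140. In 7 of 8 Q140 Pms1-/- striata the level was below every Q140 value, and the wild-type median was 0.0877 CPM. The fitted change was -3.10 (SE 0.41, adjusted p = 8.44e-07). At so few reads its size depends on the prior count of the fit, and DESeq2 gave no adjusted p for Wt1. Other low-level genes that fell were Pcdh20, a non-clustered protocadherin, at -0.58, Magel2, an imprinted gene, at -0.73, Klhl14 at -0.76 and Enkur, a protein of motile cilia, at -0.70; the call for Magel2 was lost with late code as a covariate. The call for Enkur was lost without any 1 of 9 animals (-0.71 to -0.61), and that for Klhl14 without Q140 replicate 4 or Q140 Pms1-/- replicate 1 (-0.65 to -0.62). Magel2 was 1 of 23 measured imprinted genes and Enkur 1 of 12 measured markers of choroid plexus and ependyma, and in each list it was the only call. Choroid plexus and ependymal markers summed to 33.5, 62.3 and 80.0 CPM in Q140 Pms1-/- and 53.8, 65.8 and 82.5 CPM in Q140; their part in the Enkur value was not tested.

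Clustered beta protocadherins, cell-surface proteins of which each neuron shows its own combination, were lower as a group. Of 22 beta genes 8 fell, none rose and 20 had a negative fitted change (median -0.22); 12 fell under library totals and 11 under FPKM, and 8 with late code as a covariate. Pcdhb19 had 19.5, 21.1 and 23.6 CPM in Q140 Pms1-/-, against 22.2, 26.8 and 28.4 CPM in Q140 (log2 fold change -0.31, SE 0.05, adjusted p = 3.36e-05), with 6 of 8 values below the Q140 range. Pcdhb4 fell by 0.51 on the log2 scale and Pcdhb16 by 0.30; the groups of Pcdhb4 did not overlap. Summed over the 22 genes the level was 218, 246 and 265 CPM in Q140 Pms1-/-, against 271, 284 and 289 CPM in Q140, and no Q140 Pms1-/- sum reached the Q140 range. The sums were 191, 204 and 215 CPM in Pms1-/- and 206, 218 and 244 CPM in wild type. Of 35 measured alpha and gamma protocadherins 1, Pcdha11, fell (3 under library totals and FPKM). These genes resemble one another closely in sequence, so the split of reads among single members is uncertain.

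Sarcomere and desmosome genes moved in both directions. Of 20 measured members 3 rose and 2 fell. Ttn, the giant muscle protein titin, had 1.16, 1.41 and 1.61 CPM in Q140 Pms1-/-, against 1.69, 2.19 and 2.87 CPM in Q140 (log2 fold change -0.64, SE 0.13, adjusted p = 0.000473), with separate groups, although limma on FPKM did not call it. Dsp, the desmosomal plakin, fell by 0.70 on the log2 scale (SE 0.18, adjusted p = 0.0104), a call lost without the sex term. Actn2, an actin cross-linker that in neurons binds glutamate receptors and is also on the medium spiny neuron list, rose by 0.26 (SE 0.04, adjusted p = 1.12e-06), Myh7 by 0.25 and Mybpc3 by 0.70. The call for Myh7 was lost by limma on FPKM and without Q140 Pms1-/- replicate 1 (0.20), and that for Mybpc3 without any 1 of 4 animals (0.57 to 0.64). DESeq2 gave no adjusted p for Mybpc3.

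In a pair of neighbouring genes on chromosome 17, both called lower, the levels of Tmem181b-ps lay in steps rather than by degrees. The pseudogene Tmem181b-ps (6438524 to 6467022) had between 108 and 112 CPM in 5 of the Q140 Pms1-/- striata, 204 CPM and 219 CPM in another pair and 318 CPM in the last. In Q140 it had 196 CPM in 1 striatum and 289 to 324 CPM in the other 7 (log2 fold change -0.88, SE 0.26, adjusted p = 0.0269, not called with late code as a covariate, in males only, or without any 1 of 5 Q140 Pms1-/- animals, where it was -0.82 to -0.81). Dynlt1b, a dynein light chain next to it (6430112 to 6436296), had 0.352, 0.621 and 1.14 CPM in Q140 Pms1-/-, against 1.17, 1.43 and 1.97 CPM in Q140 (log2 fold change -1.22, SE 0.25, adjusted p = 0.000754), and Dynlt1-ps1, a related pseudogene on chromosome 6, fell by 0.57 on the log2 scale. The same genes had fitted changes of -0.83, -0.79 and -0.58 in the cortex of these animals, none of which passed there. Near-identical copies can exchange reads, so single members are uncertain.

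Promoter sequence is shown for 2 genes among the strongest rises and 2 Polycomb genes that fell, because both members of each pair moved the same way and the pairs opposite ways. RefSeq promoters (250 bases before to 50 after the start, GRCm38.p6) were matched for 694 of the 958 genes called higher, 273 of the 384 called lower and 12194 of all 18890 tested. Motifs were searched on both strands: the cyclic AMP response element TGACGTCA, its shorter core TGACG, which lies within it, the AP-1 element TGANTCA, the EGR element GCGNGGGCG, the GC box GGGCGG and the box TATAAA. Capitals mark these matches on either strand. The windows are chr5:118169514-118169813 on the plus strand for Hrk, chr3:137623422-137623721 on the plus strand for Ddit4l, chr2:10370201-10370500 on the plus strand for Sfmbt2 and chr11:119040864-119041163 on the minus strand for Cbx8. Those of Hrk and Ddit4l follow a RefSeq start that lies inside the gene span given above, downstream of the start of that span.
Hrk: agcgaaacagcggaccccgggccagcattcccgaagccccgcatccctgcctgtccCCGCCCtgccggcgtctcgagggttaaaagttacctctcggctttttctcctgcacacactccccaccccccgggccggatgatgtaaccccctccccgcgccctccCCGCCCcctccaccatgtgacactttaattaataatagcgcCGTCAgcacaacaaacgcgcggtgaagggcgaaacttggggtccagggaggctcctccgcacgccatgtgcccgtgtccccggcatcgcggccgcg
Ddit4l: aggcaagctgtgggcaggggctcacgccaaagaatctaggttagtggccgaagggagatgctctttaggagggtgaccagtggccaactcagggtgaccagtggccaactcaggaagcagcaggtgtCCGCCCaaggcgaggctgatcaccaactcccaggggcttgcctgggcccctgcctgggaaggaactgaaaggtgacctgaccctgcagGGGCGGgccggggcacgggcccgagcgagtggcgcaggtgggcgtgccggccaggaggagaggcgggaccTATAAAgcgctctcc
Sfmbt2: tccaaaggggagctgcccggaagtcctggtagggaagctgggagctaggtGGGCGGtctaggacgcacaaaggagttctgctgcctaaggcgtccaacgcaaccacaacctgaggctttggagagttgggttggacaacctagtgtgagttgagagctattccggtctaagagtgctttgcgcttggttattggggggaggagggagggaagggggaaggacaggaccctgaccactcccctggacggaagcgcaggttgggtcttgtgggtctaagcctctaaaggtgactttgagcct
Cbx8: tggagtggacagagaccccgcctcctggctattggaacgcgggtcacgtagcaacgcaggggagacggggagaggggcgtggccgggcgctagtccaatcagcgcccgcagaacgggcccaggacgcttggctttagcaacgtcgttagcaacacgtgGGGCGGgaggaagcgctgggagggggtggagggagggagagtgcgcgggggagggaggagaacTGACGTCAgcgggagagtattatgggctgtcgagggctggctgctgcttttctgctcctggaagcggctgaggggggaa
The Cbx8 window holds a full cyclic AMP response element and a GC box, the Hrk window 1 core of that element and 2 GC boxes, the Ddit4l window GC boxes and a TATA box, and the Sfmbt2 window a GC box alone. The core TGACG occurred in 26.2% of promoters of genes called higher, 32.2% of those called lower and 29.8% of all tested, and the full element in 2.74%, 4.76% and 3.12%. The EGR element occurred in 14.8% of promoters called higher, 12.1% of those called lower and 10.3% of all, the GC box in 68.4%, 63.0% and 61.8%, the box TATAAA in 6.05%, 6.59% and 7.44%, and the AP-1 element in 3.89%, 3.30% and 4.97%. Of 21 medium spiny neuron genes with a promoter, 2 held the core TGACG and 12 a GC box. These shares are a description of letters and were not tested.

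Many lists stayed without a call. Of 40 lists 14, with 207 measured members, had no called gene by edgeR; 19 of the 207 had an unadjusted p below 0.05 and DESeq2 called 2. They include immediate early genes (median -0.04, 20 members), interferon-stimulated genes (median -0.16, 18 members), cytosolic chaperones (median -0.05), cholesterol synthesis genes and markers of astrocytes, microglia, oligodendrocytes, their precursors, vessels, interneurons and cortical neurons. Astrocyte markers summed to 5539, 5700.4 and 5985 CPM in Q140 Pms1-/- and 5493, 5737 and 5971 CPM in Q140, and microglial markers to 555, 593 and 655 CPM in Q140 Pms1-/- and 535, 574 and 631 CPM in Q140. Interneuron markers summed to 1025, 1075 and 1114 CPM in Q140 Pms1-/- and 1004, 1048 and 1087 CPM in Q140, and oligodendrocyte genes to 5189.7, 6008 and 7566 CPM in Q140 Pms1-/- and 5159.5, 6329.8 and 7479.5 CPM in Q140. All 4 pairs of ranges overlapped, whereas the ranges of the medium spiny neuron sum did not. The medium spiny neuron list was chosen with earlier results of these data known, so the choice fixes this contrast in part. Markers of cortical neurons, 11 of them measured, summed to 145, 157 and 164 CPM in Q140 Pms1-/- and 147, 153 and 165 CPM in Q140.

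In repair, stress, ribosomal and oxidative phosphorylation lists between 1.19% and 5.81% of the measured members were called, against 7.1% of all genes tested, and most of these shares are near that background. Apart from Pms1 itself, none of the 19 mismatch repair and repeat-instability genes was called (1 more was lower under library totals, under FPKM and with late code as a covariate). Of 25 base excision and strand-break repair genes 1, Xrcc5, the Ku80 subunit, fell by 0.17 on the log2 scale (SE 0.04, adjusted p = 0.00156). Of 18 target genes of p53 1, the kinase gene Plk2, rose by 0.15, and of 18 unfolded protein response genes 1, the sensor Atf6, rose by 0.24 (SE 0.04, adjusted p = 8.57e-06); Plk2 lost its call with late code as a covariate. Of 86 cytosolic ribosomal protein genes 1 rose and 4 fell, against 20 lower under library totals, and of 84 nuclear oxidative phosphorylation genes 1 fell, against 17 under library totals.

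The same loss of Pms1 was examined in striata without the knock-in, 8 Pms1-/- against 8 wild type, which share no library with the comparison above. There 1494 of 18890 genes were called (7.91%), 758 higher and 736 lower, and 473 with late code as a covariate. All 8 Pms1-/- mice had late codes, and the late-coded wild-type mice were all female. In males of this comparison, code and genotype therefore cannot be told apart. Of the 1494, 147 were also called in the Q140 comparison, 11.0% of the Q140 list and 9.84% of the other, 104 of them in the same direction and 43 in opposite directions. Both comparisons set late-coded mice against mostly early-coded ones, and the part of code in the shared calls was not tested. Medium spiny neuron genes were mostly not called there: of 30, 1 was higher and 2 were lower in Pms1-/- than in wild type, with a median of -0.02. Scn4b had 2208, 2551 and 2706 CPM in Pms1-/- and 2458, 2733 and 2869 CPM in wild type (log2 fold change -0.10), Penk 1504, 1727 and 1924 CPM in Pms1-/- and 1607, 1694 and 2012 CPM in wild type (-0.02). In both genes the groups overlapped. Sfmbt2 stood at 0.02 and Wt1 at -0.42, and neither passed (adjusted p = 0.925 and 0.727).

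The difference between these effects was tested directly, as the effect of Pms1 loss with the knock-in minus that without it. It was called for 954 genes (5.05%), 637 more positive (3.37%) and 317 more negative (1.68%) with the knock-in, and for 949 with late code as a covariate. Of the 30 medium spiny neuron genes 21 had a more positive effect with the knock-in and none a more negative one (median 0.27), as had 12 of 25 calcium-handling genes, 10 of 20 G-protein genes and 4 of 7 indirect pathway markers. This difference contains the gap between wild type and Q140, and 28 of the 30 were called lower in Q140 than in wild type. For Scn4b the difference was 0.63 (SE 0.08, adjusted p = 5.58e-06), for Ddit4l 0.92 (SE 0.12, adjusted p = 5.22e-06) and for Penk 0.45 (SE 0.08, adjusted p = 0.000213). Lists were chosen with earlier results of these data known. Apart from Pms1, the genes given here were named for their change in Q140 mice. The choice therefore fixes these results in part. Among genes that fell, the difference passed for Sfmbt2 (-0.91, adjusted p = 5.89e-05) and Wt1 (-2.68, adjusted p = 0.0364), and did not for Cbx8 (-0.33, adjusted p = 0.0578) or Pcdhb19 (-0.19, adjusted p = 0.135). Oprk1, Slc4a11 and Pms1 are examples of the 104 genes called in the same direction on both backgrounds. Oprk1 rose by 0.33 in Pms1-/- against wild type (adjusted p = 0.00697), and the difference between backgrounds did not pass (adjusted p = 0.998). Slc4a11 rose there by 0.49 (adjusted p = 0.00672) and Pms1 fell by 0.43 on the log2 scale (adjusted p = 0.000698); neither difference between backgrounds passed (adjusted p = 0.357 and 0.659).

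Loss of a single Pms1 copy gave no call. In Q140 Pms1+/- against Q140 striata, edgeR called 0 of 18890 genes (0%), with 1026 at an unadjusted p below 0.05; no other tool was run on it. This comparison uses the same Q140 libraries, so levels are set side by side only. The medium spiny neuron sum was 19981, 22632 and 23186 CPM in Q140 Pms1-/-, 17721, 19039.5 and 21231 CPM in Q140 Pms1+/- and 17201, 18483 and 19556 CPM in Q140. Median Scn4b was 1953 CPM in Q140 Pms1-/-, 1501 CPM in Q140 Pms1+/- and 1380.2 CPM in Q140, and median Sfmbt2 was 3.23 CPM in Q140 Pms1-/-, 4.47 CPM in Q140 Pms1+/- and 6.47 CPM in Q140. The fitted change of Q140 Pms1+/- against Q140 was 0.19 for Scn4b (adjusted p = 0.755) and -0.48 for Sfmbt2 (adjusted p = 0.0701).

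Few genes were called in the cortex of the same animals. Of 18711 genes tested in cortex, 2 were called in Q140 Pms1-/- against Q140 (0.0107%), Gm12258 and Dgkq, which are named here after their values were seen; DESeq2 called 167, and 2713 had an unadjusted p below 0.05. Dgkq encodes a diacylglycerol kinase. The difference itself, the effect in striatum minus the effect in cortex, was called for 801 of 19723 genes (4.06%), and for 1541 (7.81%) with the animal as a block, which pairs the tissues. Among the 72 named genes discussed here it passed for 43. Apart from Pms1 and Htt, these genes were named for their striatal change. That change is part of this difference, so the choice fixes the count in part. Scn4b had 166, 196 and 205 CPM in Q140 Pms1-/- cortex, against 161, 199 and 223 CPM in Q140 cortex, and the effects differed by 0.54 (SE 0.09, adjusted p = 4.30e-05). Sfmbt2 had 1.82, 2.21 and 2.50 CPM in Q140 Pms1-/- cortex, against 1.83, 2.45 and 2.98 CPM in Q140 cortex, and a difference of -0.77 (SE 0.15, adjusted p = 0.00045). In both genes the cortical groups overlapped. Hrk, Adcy5 and Ppp1r1a differed between the tissues by 0.51, 0.36 and 0.31.

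**Figure D5:**
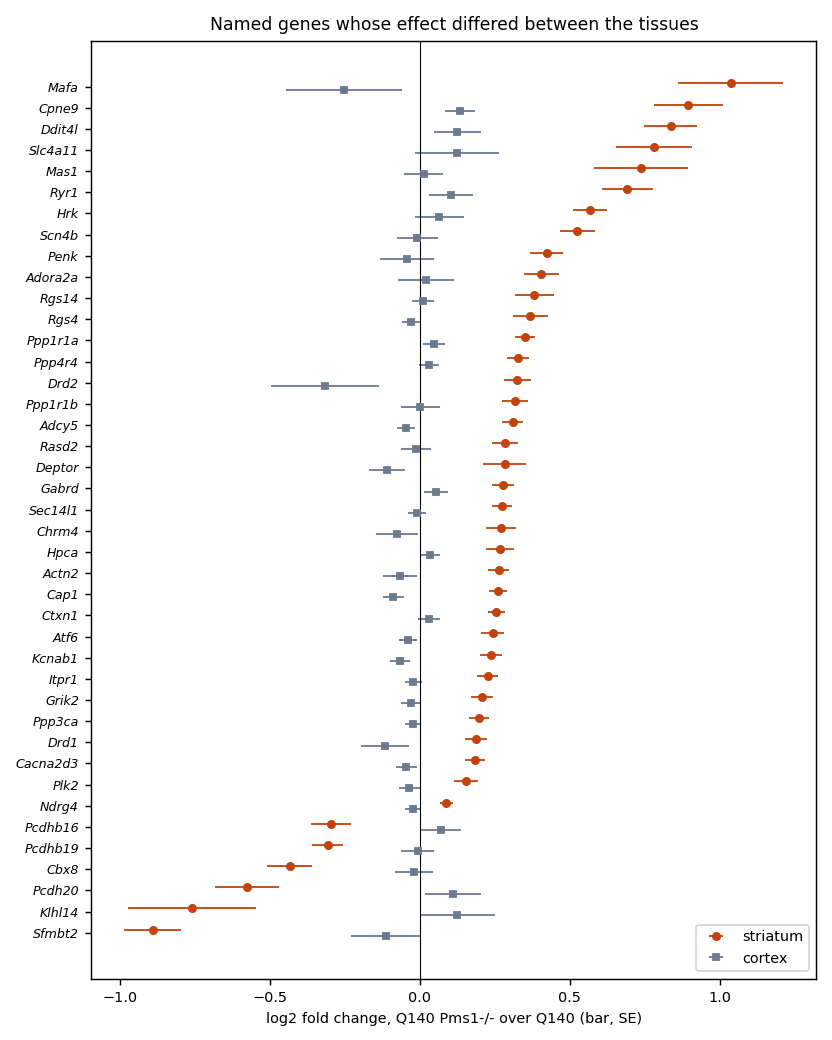
Log2 fold change, Q140 Pms1-/- over Q140, with its SE, in striatum (circles) and cortex (squares) for named genes whose effect differed between the tissues and that were measured in both, Wt1 left out. Most squares lie close to 0 while the circles run from Sfmbt2 at -0.89 to Mafa at 1.04. Genes were named for their striatal change, so the choice fixes the gap between circles and squares in part.

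No difference between the sexes in the response was called by edgeR. In a fit with a term for each genotype and sex, 603 genes were called in females (3.19%) and 370 in males (1.96%), and the difference between the sexes was called for 0 of 18890 genes (0%) by edgeR and for 1 by DESeq2, with 1120 at an unadjusted p below 0.05. Scn4b rose by 0.60 in females and 0.45 in males, Ddit4l by 0.88 in females and 0.79 in males, and Sfmbt2 changed by -0.92 in females and -0.86 in males. Immediate early genes had a median of 0.54 in females, where none of 20 was called, and -0.62 in males, where 2 were called lower, so that their median over both sexes lies between opposite values; the difference between the sexes was called for none of them. Cbx8 stood at -0.30 in females (adjusted p = 0.124) and -0.56 in males (adjusted p = 0.00314).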

How the data were processed

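Per the labels' protocols, total RNA was purified with RNeasy kits and made into stranded TruSeq libraries. The authors deposited 2 tables: whole-number read counts per gene, not normalized, and FPKM values. The tools listed were HTSeq 0.12.3, SAMtools 1.10 and STAR 2.7.5c, with the builds mm10 and GRCm38, per the submitters' processing notes; the sources used here state neither strand setting nor annotation release, so overlapping and antisense genes are uncertain. Of 48795 genes listed, 48435 matched GENCODE M21 on GRCm38, which gave coordinates.

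Counts were tested in R 4.3.3 with edgeR 4.0.16 (TMM, filterByExpr by genotype, robust quasi-likelihood fit), fitting the 48 libraries of a tissue together on genotype and sex; the tissue difference used all 96. A call is a Benjamini-Hochberg adjusted p below 0.05 over all genes of a comparison, and an adjusted p with no test named comes from edgeR. Each SE was derived as the size of the log2 fold change divided by the square root of the test's F statistic. It is not an output of edgeR. Alternatives were DESeq2 1.42.0, limma 3.58.1 (voom, with and without the first code number as a block; and log2(FPKM + 0.1)), RLE size factors, library totals, no low-count filter, no sex term, the 16 libraries alone, each sex alone, late code as a covariate or a restriction, and each animal left out. The late-coded males alone were added after seeing the data. Fold changes on log2(FPKM + 0.1) understate the change of low genes.

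Genes were named by rule: Pms1, Htt, the 15 largest called increases and decreases (mean of at least 1 CPM, same direction in both sexes, no predicted-gene name), the 10 smallest p-values, the 5 most abundant called genes and, from each list, at most 3 risen and 3 fallen members; 72 of 89 such genes were followed, and some genes are not reported here. Further list members, such as Cnr1, Rgs9 and Suz12, are named outside this rule and are not among the 72. Members, lists and tests were chosen with earlier results of these data known. On simulated counts for this comparison, the test called 64.2% of genes changed by 0.25 on the log2 scale, 84.4% at 0.5 and 93.9% at 1, and 7 of 18567 unchanged genes. The simulated animals were independent and had no effect of code, so these rates do not cover false calls from either source. Animals are treated as independent, although those sharing a first code number correlated by 0.133 in striatum.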

Additional observations from a re-analysis of the deposited data

Results flagged for a closer look

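For 43 of the 72 named genes, the effect of Pms1 loss in Q140 mice differed between striatum and cortex by edgeR's test of the difference itself. Apart from Pms1 and Htt, the 72 were named for calls in the striatal comparison, so the choice fixes this count in part. The values are the effect in striatum minus that in cortex on the log2 scale. The widest positive differences were those of Il2rb (1.90), Mafa (1.30), Cpne9 (0.76), Mas1 (0.74), Ddit4l (0.72), Slc4a11 (0.66), Drd2 (0.66), Ryr1 (0.60), Scn4b (0.54) and Hrk (0.51). Intermediate ones were those of Penk (0.47), Rgs4 (0.41), Deptor (0.40), Adora2a (0.40), Rgs14 (0.38), Adcy5 (0.36), Cap1 (0.36), Chrm4 (0.36), Actn2 (0.34), Ppp1r1b (0.32), Drd1 (0.31), Kcnab1 (0.31), Ppp1r1a (0.31), Rasd2 (0.31) and Ppp4r4 (0.30). Smaller ones were those of Sec14l1 (0.29), Atf6 (0.29), Itpr1 (0.26), Grik2 (0.25), Hpca (0.24), Cacna2d3 (0.24), Ctxn1 (0.23), Gabrd (0.23), Ppp3ca (0.23), Plk2 (0.20) and Ndrg4 (0.12). The difference was negative for Wt1 (-2.71), Klhl14 (-0.88), Sfmbt2 (-0.77), Pcdh20 (-0.68), Cbx8 (-0.41), Pcdhb16 (-0.36) and Pcdhb19 (-0.29). With the animal as a block, which pairs the tissues, the number of genes called over the whole table was larger (1541 against 801). Sex gave no such difference for any of the 72 genes.

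In 9 of 144 groups of 8 animals checked, 1 animal stood apart from the rest by its gap to the nearest other; chance alone does this in about 1 group in 20. In Q140 Pms1-/- striatum these were the lowest animals for Dlx6 (42.2 CPM, a female), Sp9 (31.7 CPM, a female), Klhl14 (0.226 CPM, a female) and Ppp1r1a (62.1 CPM, a male), and the highest for Ppp4r4 (100.2 CPM, a female) and mt-Nd5 (6892 CPM, a male). In Q140 striatum they were the highest for Ppp1r1b (2013 CPM, a male) and Wnt8b (1.92 CPM, a male), and the lowest for Tmem181b-ps (196 CPM, a male).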

How the results depend on the processing

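Of the 72 named genes, none changed sign under any alternative but Plk2, at -0.00736 in males only. All 72 kept direction and call with RLE size factors and 70 with the replicate block. By DESeq2 70 kept both, and the other 2, Wt1 and Mybpc3, had no adjusted p. The call was kept by 63 in the 16 libraries alone and by 63 with late code as a covariate. It was kept by 26 in late-coded animals and by 0 in late-coded males. Genes called for Q140 Pms1-/- against Q140 numbered 1342. The count was 2148 with library totals, 2164 with limma on FPKM and 991 in the 16 libraries alone. It was 601 in females only, 175 in males only, 154 in late-coded animals and 0 in late-coded males. These last 4 settings hold fewer animals, and the cause of the differences in count was not tested. Leaving out 1 animal gave 981 to 1596. The first code number as a replicate block (limma voom) gave 1263 calls, against 1374 without it. The numbers do not pair the groups by design. For Pms1-/- against wild type, late code as a covariate gave 473 calls against 1494. In cortex DESeq2 gave 167 and the late-code covariate 0, against 2, and for the sex difference DESeq2 gave 1 against 0. The animal as a replicate block gave 1541 calls for the tissue difference, against 801. Genes of a few reads, such as Wt1, and changes under 0.25 on the log2 scale are where depth and group size limit detection. Late code and genotype cannot be told apart in females for Q140 Pms1-/- against Q140, nor in males for Pms1-/- against wild type.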

Other observations

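Genes on the X chromosome stood out among those that fell. Of 683 X-linked genes tested, 58 (8.49%) were called lower and 13 higher in Q140 Pms1-/- than in Q140, against 1.80% lower on the autosomes, and the median X-linked change was -0.03. Htr2c, the serotonin 2C receptor, had 71.1, 78.6 and 98.2 CPM in Q140 Pms1-/- and 87.1, 96.8 and 114 CPM in Q140 (log2 fold change -0.31). Gprasp2, a protein that sorts G-protein-coupled receptors, had 121, 129 and 141 CPM in Q140 Pms1-/- and 141, 149 and 156 CPM in Q140 (-0.21). Pcdh19, a protocadherin, stood at -0.33, Trmt2b at -0.29 and Dock11 at -0.29, while Srpx rose by 0.55 and Porcn, which acylates Wnt ligands, by 0.16. In the fit of genotype by sex, 15 X-linked genes were lower and 3 higher in males, against 91 and 279 over all genes. In females 12 were lower and 5 higher, against 109 and 494. Without the knock-in 52 were lower and 19 higher, against 736 and 758 over all genes. In Q140 against wild type 66 were lower and 167 higher, against 2910 and 2999. In cortex none was called either way, but only 2 genes were called there on any chromosome. In Q140 Pms1-/- striatum 34 were lower and 10 higher with late code as a covariate, against 239 and 712 over all genes. In late-coded animals 7 were lower and 2 higher, against 28 and 126. Library totals gave 114 lower and 6 higher and limma on FPKM 116 lower and 7 higher, with 1526 and 1550 lower over all genes. These genes and the chromosome were singled out after their values were seen.

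Clock and clock-output genes, also picked after their values were seen, were partly higher. Of 15 genes 7 rose and none fell (median 0.11), against 5.07% higher and 2.03% lower over all genes tested; the choice of genes fixes this count in part. Ciart, a repressor of the clock, had 26.2, 30.5 and 42.0 CPM in Q140 Pms1-/- and 18.0, 22.3 and 31.1 CPM in Q140 (log2 fold change 0.45, adjusted p = 0.000405), and Tef, an output transcription factor, had 635, 655 and 697 CPM in Q140 Pms1-/- and 541, 571 and 631 CPM in Q140 (0.19). Dbp rose by 0.36, Nr1d1 by 0.28, Npas2 by 0.25, Usp2 by 0.22 and Hlf by 0.16, whereas Per2 stood at -0.06 and Cry1 at -0.13 and did not pass. The sources used here do not give the hour of dissection, and its part in these values was not tested.

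The 13 mitochondrially encoded genes split by level. Those at 4259.6 CPM and more had small positive changes, with mt-Nd5, mt-Nd4 and mt-Cytb called at 0.12, 0.09 and 0.09; all 3 calls were lost under library totals and with late code as a covariate, and when 1 animal was left out mt-Nd5 lost its call for 10 of the 16 animals (0.09 to 0.13), mt-Nd4 for 8 (0.07 to 0.09) and mt-Cytb for 11 (0.07 to 0.09). The others, at 0.688 to 90.4 CPM, had changes between -0.47 and -0.25 and none passed. Near Pms1, Hecw2 and Mars2 were called, which is 2 of 37 genes within 2 Mb (5.41%), of 53 within 5 Mb (3.77%) and of 127 within 10 Mb (1.57%), against 7.1% of all genes tested.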
